A study of Mus musculus with 2 samples.

Results

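The adult heart library held 1472 B cells of low RNA content. They were chosen by their UMI number, mitochondrial share and Cd79a, as droplets with 2000 to 5000 UMIs of genes (unique molecular identifiers, each marking 1 captured mRNA molecule), at most 10% of them in mitochondrial genes, and at least 1 UMI of Cd79a, which encodes the signaling chain Ig-alpha of the B cell receptor. They made up 40.8% (exact 95% interval 39.2 to 42.4%) of the 3611 adult Cd79a droplets with at least 2000 UMIs within the same mitochondrial limit, and were taken from 8895 droplets of both ages with at least 500 UMIs. They are compared with the 1044 Cd79a droplets of the same library and mitochondrial limit that held more than 10000 UMIs, called high-RNA cells below. These values were used in the choice, so they describe the cells and are not results.

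B cells were sorted from digested hearts of wild-type C57BL6/J mice as live (Aqua-negative) CD45+ single cells. The adult group was 6 male mice of 8 weeks, and the neonatal group was 6 mice of both sexes at 2 weeks. The hearts of an age were pooled before loading and sequenced as 1 library with the Chromium 3′ v3 chemistry, so the values of single mice cannot be separated. The adult library held 49500780 gene UMIs and the neonatal library 26866958. With 1 library per age, and cells that are not replicates, no difference has a replicate check and no p-value is given. All intervals are exact 95% intervals that cover counting error only.

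Most B cells in blood and secondary lymphoid organs are small, resting follicular cells that recirculate, carry IgM and IgD, and wait for antigen. Their rest is maintained by transcription factors and growth inhibitors such as KLF2, FOXO1, BTG1 and the cell cycle inhibitor p27. Activated and dividing B cells are larger and hold more RNA, and B1 cells, which populate body cavities and make natural antibody, also have a larger cell body. A droplet with few UMIs may hold a cell with little RNA or a cell whose RNA was captured poorly, and these cannot be told apart in a count table. The phrase low RNA content is used here only for the UMI number.

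Of the 1869 adult droplets with 2000 to 5000 UMIs, 1473 were within the mitochondrial limit, and 1 of these had no Cd79a UMI. Another 381 droplets of this size had Cd79a but exceeded the limit. The 1472 low-RNA cells had a median of 4004.5 UMIs, with quartiles at 3596 and 4394.5. The high-RNA cells had a median of 15461 UMIs. The most frequent size of adult Cd79a droplets lay inside the low-RNA range, where the histogram of droplet sizes reached 441 droplets between 3975 and 4461 UMIs. In the neonatal library the same range held 546 cells, which was 26.3% (24.4 to 28.2%) of 2077.

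**Figure D1:**
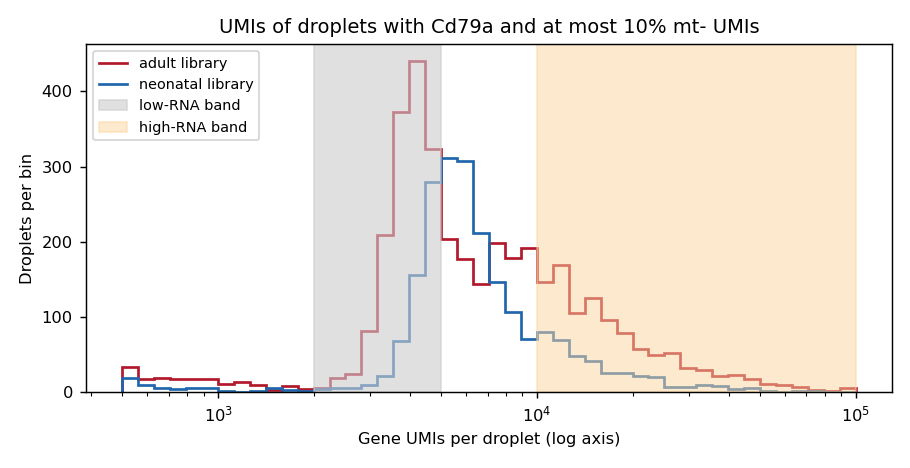
Number of droplets (vertical axis) by gene UMIs per droplet (horizontal log axis) for droplets with Cd79a and at most 10% mitochondrial UMIs, in the adult (red) and neonatal (blue) libraries. The adult peak of 441 droplets sits within the shaded range of 2000 to 5000 UMIs, and the neonatal peak of 311 droplets lies just above it.

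Where droplets were numerous at the borders of the range, Fcer2a was close on both sides, and Vpreb3 and S100a6 differed more. The 295 cells with 4501 to 5000 UMIs had 383 CPM (UMIs of a gene scaled to a total of 1000000) of Fcer2a, 322 CPM of Vpreb3 and 50.8 CPM of S100a6. In the 170 droplets with 5001 to 5500 UMIs, just outside, the values were 394, 250 and 61.8 CPM. At the lower border there were 5 droplets with 1800 to 1999 UMIs and 4 with 2000 to 2199 UMIs, too few to compare. At the mitochondrial border, 120 cells with 9 to 10% had 417 CPM of Fcer2a and 69 droplets with 10 to 11% had 399 CPM. Vpreb3 was at 287.5 CPM in the former and 355 CPM in the latter, and S100a6 at 29.2 and 36.2 CPM.

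The B cell label fitted the markers. Transcripts were compared after each cell had been thinned at random to 2000 UMIs, so that both groups were read at the same depth. After thinning, Cd79b, the partner chain of Cd79a in the receptor, was present in 89.3% of low-RNA cells and 89.4% of high-RNA cells. All 12 B cell identity genes were measured above the minimum level, a mean of 20 CPM over both groups. This list includes Cd79a, whose presence was set by the choice of cells. Ms4a1, the gene of CD20, was present in 74.7% of low-RNA cells and 88.1% of high-RNA cells.

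Free RNA in the droplets was small beside these shares. Near-empty adult droplets held a mean of 92.0 UMIs, which is 2.38% of the UMIs of a low-RNA cell and 0.575% of those of a high-RNA cell. If each thinned cell held that much free RNA, 6.36% of low-RNA cells and 1.58% of high-RNA cells would show Cd79b. The free share was larger in the smaller cells. With free RNA subtracted, the counts of higher and lower genes given below as 359 and 279 became 377 and 288.

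Markers of other cell types were nearly absent, apart from the endothelial gene Pecam1. Summed over the thinned low-RNA cells, 8 T cell genes had 5 UMIs, 8 macrophage and monocyte genes had 7, 6 erythroid genes had 7 and 6 NK cell genes had 1, of 2944000 UMIs in all. The most abundant T cell gene, Trac, and the most abundant NK cell gene, Gzma, were at 0 in these cells, and 5 of 8 macrophage genes were at 0. Cardiomyocyte genes had 15 UMIs, led by Mb (myoglobin) with 5, fibroblast genes had 4, and 5 neutrophil genes had 1. Platelet genes had 2 UMIs. A list of 7 neuronal genes had 19, of which Gad1 gave 13. Among 7 endothelial genes, Pecam1 stood at 106 CPM in low-RNA and 110 CPM in high-RNA cells, while 3 of the 7 were at 0 in low-RNA cells. At least 2 UMIs of other cell types were found in 5 of the 1472 low-RNA cells and 7 of the 1044 high-RNA cells. Endothelial genes were left out of this count and of the limits on other cell types used below. Of the low-RNA barcodes, 1 also held at least 500 UMIs in the neonatal library, against 44 of the high-RNA barcodes. Smaller amounts were general, since 1447 low-RNA and all 1044 high-RNA barcodes held at least 20 UMIs there.

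At equal depth the number of genes per cell was similar. Low-RNA cells had a median of 877.5 genes (interval 873 to 881) at 2000 UMIs, and high-RNA cells had 868 (862 to 876). As sequenced, the medians were 1426 and 3295 genes. The mitochondrial share, which the rule limited, had a median of 7.23% in low-RNA and 6.77% in high-RNA cells.

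Across the transcriptome, 4939 genes had a mean of at least 20 CPM over both groups. Of these, 359 (7.27%) were at least 1.5-fold higher in low-RNA cells and 279 (5.65%) at least 1.5-fold lower. The median log2 ratio of low-RNA over high-RNA cells was 0.07 over all 4939 genes. The balance of the 2 directions depended on the scaling and on the thinning. With median-of-ratios size factors in place of the total, 249 genes were higher and 331 lower. Averaging each cell's own share of UMIs without thinning gave 232 higher and 220 lower. Summing UMIs without thinning gave 198 higher and 242 lower.

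The genes most below their level in high-RNA cells were led by S100a6, which encodes a calcium-binding protein. It had 28.9 CPM in low-RNA cells and 964 CPM in high-RNA cells, a log2 ratio of -5.06 (interval -5.39 to -4.75). A S100a6 UMI was present in 4.55% (3.54 to 5.74%) of low-RNA cells, where free RNA would give 1.56%, and in 52.0% (48.9 to 55.1%) of high-RNA cells. S100a6 was thus common among the larger cells and rare among the smaller cells at this depth. In the neonatal library, which the rule did not use, it had 25.6 CPM in cells of the same low range and 1333 CPM in those over 10000 UMIs.

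A named gene had to reach 100 CPM in at least 1 group. Of the 12 lower genes, 9 were under 100 CPM in low-RNA cells and so could be named only as lower, the exceptions being Plac8, Ly6a and Vim. Of the 12 higher genes, 3 (Atg101, Gadd45a and Cerk) could be named only as higher. Lgals1, the gene of galectin-1, had 17.7 CPM in low-RNA and 175 CPM in high-RNA cells (log2 ratio -3.31, interval -3.76 to -2.88). Itgb1, the integrin beta-1 chain, had 17.0 and 134 CPM (-2.98, -3.45 to -2.54), and was present in 3.12% against 19.3% of cells. Vim, the gene of vimentin, had 255 and 808 CPM (-1.66, -1.79 to -1.54). A Vim UMI was present in 32.4% of low-RNA and 61.9% of high-RNA cells, beside 2.36% and 0.577% from free RNA. Ahnak, which encodes a large scaffold protein, had 44.5 and 197 CPM (-2.15, -2.44 to -1.86). Without cells that held any B1 list UMI, a comparison described below, Lgals1 was at -1.32, Itgb1 at -1.12 and Vim at -0.77.

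The other named lower genes have various roles. Ccnd2, which encodes cyclin D2 and drives B cells out of rest, had 23.1 CPM in low-RNA and 210 CPM in high-RNA cells (-3.18, -3.57 to -2.81), and was present in 3.80% and 28.4% of cells. Odc1, the first enzyme of polyamine synthesis, had 95.1 and 279.7 CPM (-1.56, -1.77 to -1.35). Traf1, a signaling adaptor made after NF-kB activation, had 43.5 and 136 CPM (-1.65, -1.96 to -1.34). The immediate-early transcription factors Atf3 and Egr1 stood at 29.9 against 150 CPM and at 25.8 against 105 CPM, with log2 ratios of -2.33 and -2.02. Plac8, abundant in marginal zone B cells, had 247 and 1068 CPM (-2.11, -2.24 to -1.99). Ly6a, the surface protein Sca-1, had 212 and 735 CPM (-1.80, -1.93 to -1.66). Without cells that held any B1 list UMI, Ccnd2 was at -2.20, Plac8 at -1.36, Ly6a at -1.16, Atf3 at -1.09 and Odc1 at -0.90. Egr1 was then at -2.10 and Traf1 at -1.40. Ighg2c and Jchain had larger or similar ratios but are set aside because of single cells. Among high-RNA cells, the top cell for Ighg2c gave 97.7% of its UMIs, and the top cell for Jchain 27.7%.

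On the other side, the highest ratio among genes reaching 100 CPM in at least 1 group belonged to Vpreb3, a protein of the endoplasmic reticulum that associates with immunoglobulin chains in developing B cells. It had 303 CPM in low-RNA and 129 CPM in high-RNA cells, a log2 ratio of 1.24 (1.04 to 1.44). A Vpreb3 UMI was found in 38.2% (35.8 to 40.8%) of low-RNA cells and 19.5% (17.2 to 22.1%) of high-RNA cells, beside 1.02% and 0.249% from free RNA. Before thinning, the shares were 56.0% and 57.0%, because the larger cells were read more deeply. Chchd10, which encodes a small mitochondrial protein, followed with 316 and 142 CPM (1.15, 0.96 to 1.35). Without cells that held any B1 list UMI, Vpreb3 was at 0.43 and Chchd10 at 0.37, both under 1.5-fold.

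These genes lie side by side on chromosome 10. The GENCODE M21 annotation of GRCm38 places Chchd10 at chr10:75933130-75937747 and Vpreb3 at chr10:75943057-75949657, both on the plus strand and 5309 bases apart. The 250 bases before each RefSeq start are shown, because the pair led the ratio and both windows hold the octamer ATTTGCAT or its reverse complement ATGCAAAT, the sequence read by OCT proteins in immunoglobulin promoters, here in capitals. The windows are on the plus strand of GRCm38.p6 at chr10:75932880-75933129 for Chchd10 and at chr10:75948050-75948299 for Vpreb3, whose RefSeq start lies inside the GENCODE gene.
Chchd10: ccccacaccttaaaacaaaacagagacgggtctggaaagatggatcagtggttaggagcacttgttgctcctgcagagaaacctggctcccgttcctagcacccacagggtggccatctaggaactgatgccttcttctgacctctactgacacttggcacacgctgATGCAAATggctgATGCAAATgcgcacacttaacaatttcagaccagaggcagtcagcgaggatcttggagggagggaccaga
Vpreb3: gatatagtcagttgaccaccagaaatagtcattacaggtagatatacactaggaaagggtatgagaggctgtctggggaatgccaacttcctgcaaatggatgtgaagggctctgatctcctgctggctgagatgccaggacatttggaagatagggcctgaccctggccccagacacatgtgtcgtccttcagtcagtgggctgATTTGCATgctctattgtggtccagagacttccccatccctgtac

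Among the named genes, 10 higher and 8 lower genes had a window. The octamer was present in 3 of the 10, Chchd10, Gadd45a and Vpreb3, and in 0 of the 8, and in 1.60% of all 32851 windows of this length, both strands read. None of the other motifs searched on both strands contains the octamer or lies within it. The E-box CAGGTG was in 1 of 10 and 0 of 8 windows (17.2% of all), and a palindromic EBF motif was in none of either (0.779%). A perfect NF-kB motif was in 1 and 0 (0.140%). TATAAA was in 2 and 1 (12.4%), and CCAAT in 1 and 4 (33.8%). A match describes these letters and is not a binding site.

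The rest of the higher genes also have various roles. Tsc22d3, the glucocorticoid-induced leucine zipper GILZ, had 892 CPM in low-RNA and 436 CPM in high-RNA cells (1.03, 0.92 to 1.14), and was present in 76.1% and 51.5% of cells. Gadd45a, a growth arrest and DNA damage gene, had 158 and 77.6 CPM (1.03). Smad7, an inhibitor of TGF-beta signaling, had 215 and 104 CPM (1.05), and Dusp2, a phosphatase of MAP kinases, had 383 and 187 CPM (1.03). Without cells that held any B1 list UMI, the log2 ratios were 0.39 for Gadd45a, 0.49 for Smad7 and 0.22 for Dusp2, all under 1.5-fold, and 0.73 for Tsc22d3. Cxcr4, the receptor for CXCL12 that guides B cells in bone marrow and follicles, had 467 and 227 CPM (1.04, 0.89 to 1.19). Cd55, the complement decay-accelerating factor, was present in 69.4% of low-RNA cells and 44.2% of high-RNA cells, at 662 and 332 CPM, with an interval of the log2 ratio from 0.87 to 1.12. The histone H1 gene Hist1h1c, the autophagy gene Atg101, the ceramide kinase gene Cerk and the ubiquitin ligase gene Neurl3 had log2 ratios of 1.09, 1.04, 0.96 and 0.96. Without cells that held any B1 list UMI, Cxcr4 was at 0.54, Atg101 at 0.38 and Neurl3 at 0.31, all under 1.5-fold. Cd55 was then at 0.59, Cerk at 0.62 and Hist1h1c at 0.99.

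**Figure D2:**
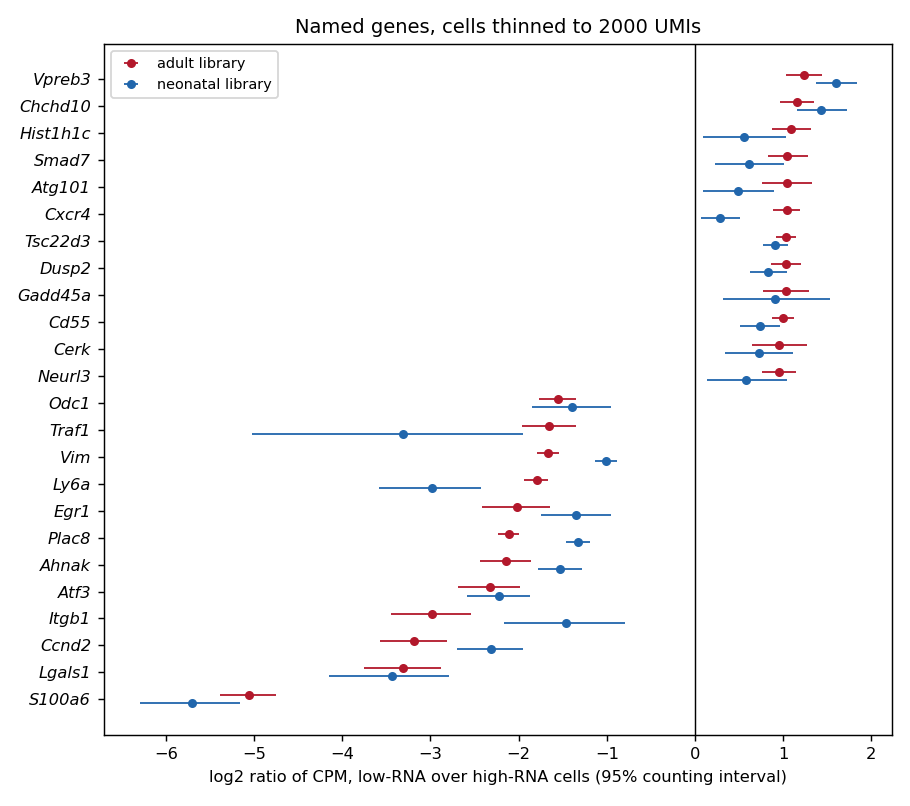
The log2 ratio of CPM in low-RNA over high-RNA cells (horizontal axis) for the 24 named genes, in the adult (red) and neonatal (blue) libraries; bars are 95% counting intervals. All 24 genes lie on the same side of 0 in both libraries, with S100a6 farthest out at -5.06 and -5.70.

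Gene groups were described by the median of their members above 20 CPM, beside the median of 0.07 and the shares of 7.27% and 5.65% over all genes. The 8 follicular B cell genes had a median of 0.54, which was -0.01 without cells that held any B1 list UMI. Of the 8, 4 were at least 1.5-fold higher in low-RNA cells, namely Ighd (997 against 555 CPM), the lymph node homing receptor Ccr7 (673 against 405 CPM), the oxysterol receptor Gpr183 (376 against 232 CPM) and Fcer2a, the gene of CD23 (374 against 238 CPM). Cr2, the gene of CD21, and Cxcr5, the follicle homing receptor, had log2 ratios of -0.56 and -0.33. In sum the list was higher, at 3676 against 2539 CPM, but not every member was, and IgD had the largest ratio. Ighm, the IgM heavy chain, had 2484 CPM in low-RNA and 3460 CPM in high-RNA cells (-0.48, -0.52 to -0.43). By droplet size it was at 2291 CPM from 5001 to 7000 UMIs and 2328 CPM from 7001 to 10000, both below the low-RNA level, then at 2929 CPM up to 20000 UMIs and 4654 CPM above.

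Genes of quiescence had a median of 0.34 over 14 members, with 5 at least 1.5-fold higher and 0 lower by that much. The median depended on the setting, with 0.62 under another random draw in the thinning, 0.19 among cells with Cr2 or Fcer2a and 0.05 without cells that held any B1 list UMI. Klf2, which holds lymphocytes at rest and lets them recirculate, had 2411 CPM in low-RNA and 1488 CPM in high-RNA cells. Btg1, an antiproliferative gene, had 2288 and 1224 CPM. Cdkn1b, the gene of p27, had 175 and 106 CPM, and S1pr1, the receptor by which lymphocytes leave tissue, had 240 and 156 CPM. The fifth was Tsc22d3. Foxo1 was nearly level at 101 and 103 CPM, and Pdcd4 had a log2 ratio of -0.34.

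Of the 11 B1 cell genes, 5 passed the minimum level, with a median of -3.71. Anxa2 (4.76 against 82.9 CPM) and Cd9 (5.10 against 66.6 CPM, the median gene) passed only through the high-RNA cells and so had to be lower. The other 3, with at least 20 CPM in both groups, were S100a6, Ahnak and Zbtb20 (103 against 264 CPM), and their median was -2.15. Of the 6 genes under the minimum, Bhlhe41, a transcription factor needed by B1a cells, was in 14 of 1472 low-RNA cells (0.951%) and 68 of 1044 high-RNA cells (6.51%). Cd5 was in 1 and 5 cells. Sums over all 11 genes were 201 CPM and 1684 CPM. S100a6 gave most of the high-RNA sum, and Ahnak, Anxa2 and S100a6 are also made by other activated or memory-type lymphocytes, so the list does not define B1 cells by itself.

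Cell cycle genes had a median of -0.77 over the 6 of 18 that passed, with 4 at least 1.5-fold lower. Of these, 2 passed only through the high-RNA cells, among them Top2a (9.17 against 40.2 CPM), and had to be lower. Over the other 4 of the 6 the median was -0.65, with Tubb5, a tubulin gene, at 200 against 330 CPM. Pcna, the sliding clamp of DNA replication, had 52.6 and 44.5 CPM. Mki67, present only in dividing cells, was found in 1 low-RNA cell, which is 0.0679% and near the 0.0447% that free RNA would give, and in 27 high-RNA cells (2.59%). With the high-RNA cells limited to 20000 UMIs the list median was 0.11. The sum over all 18 genes was 349 to 385 CPM in the 3 size steps of the low-RNA cells, 507 CPM from 10001 to 20000 UMIs and 1093 CPM above.

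Interferon-induced genes had a median of -0.95 over 9 genes, with 7 at least 1.5-fold lower. Of the 9, 3 passed only through the high-RNA cells and had to be lower, and the other 6 had a median of -0.74 with 4 past 1.5-fold. Ifi27l2a, the most abundant, had 415 CPM in low-RNA and 685 CPM in high-RNA cells, and Ifit3, among those 3, had 9.85 and 82.9 CPM. Antigen presentation by MHC class I had a median of -0.27 over 12 genes, with the proteasome genes Psmb9 and Psme2 and the peptide transporter gene Tap1 at least 1.5-fold lower. MHC class II had a median of 0.23 over 11 genes, and only H2-Ob, which restrains peptide loading, passed 1.5-fold (492 against 324 CPM). The class II median was 0.10 without cells that held any B1 list UMI and -0.04 against cells of 5001 to 10000 UMIs. Cd74, the invariant chain, was the most abundant B cell gene of these lists at 15459 and 12641 CPM.

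Ribosomal protein genes took up 284978 CPM in low-RNA cells and 312901 CPM in high-RNA cells. Their median log2 ratio was -0.14 over 79 genes, with Rplp0 (3098 against 5063 CPM) and Rps12 (3655 against 5807 CPM) at least 1.5-fold lower and 0 genes higher by that much. In total, 63 of the 79 were below 0. Oxidative phosphorylation had a median of -0.09 over 75 genes, with 0 past 1.5-fold in either direction. Ribosome assembly had -0.33 over 11 genes and glycolysis -0.25 over 12. Of the 12 glycolysis genes, 1 passed only through the high-RNA cells and had to be lower, and the other 11 had a median of -0.24. Among actin cytoskeleton genes, with a median of -0.16 over 16, the cytoplasmic actin Actg1 stood out at 817 against 1522 CPM.

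The B cell receptor signaling list was nearly level, with a median of 0.01 and 0 of 14 genes past 1.5-fold. B cell identity genes, with Cd79a among them, had a median of 0.06. The lineage factor Ebf1 was at 1732 against 1020 CPM and Ms4a1 at 833 against 1273 CPM. The identity median kept its sign under 16 of 21 alternatives, and was -0.09 without cells that held any B1 list UMI. Survival genes had -0.38 over 8, with the BCL2 relative Bcl2a1b at 69.6 against 134 CPM. Another relative, Bcl2a1d (15.3 against 57.5 CPM), passed only through the high-RNA cells, and without it the median was -0.35. Stress and cell death genes had 0.35 over 7, and all 7 were above 0. Gadd45a, Ddit3 and Atf4 passed 1.5-fold, with log2 ratios of 1.03, 0.75 and 0.63. Nuclear noncoding RNAs had 0.31 over 6 genes, with Malat1, a long RNA of the nucleus, at 30648 CPM in low-RNA and 24095 CPM in high-RNA cells.

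Lists of other B cell states showed mixed directions. Among 4 transitional B cell genes above the minimum, Vpreb3 was higher and Cd24a, the heat-stable antigen of immature B cells, was lower at 184 against 323 CPM, and the median was -0.28. Marginal zone genes had -0.49 over 6 genes, and -0.42 without Cd9, which passed only through the high-RNA cells; Plac8 was past 1.5-fold. Plasma cell and secretion genes had -0.32 over 8, where Jchain, set aside above, also passed only through the high-RNA cells and no other member reached 1.5-fold. Immediate-early genes had 0.14 over 14, where Atf3 and Egr1 were lower while Ier2 was at 503 against 333 CPM. Activation and NF-kB genes had 0.04 over 13. The 13 migration receptors had a median of -0.18 with 4 at least 1.5-fold higher (Cxcr4, Ccr7, Gpr183 and S1pr1) and 3 lower, which were the integrin chains Itgb1, Itgb2 and Itgal. Itgb1 passed only through the high-RNA cells, and the other 12 had a median of -0.11. Summed over all 14 listed receptors, low-RNA cells had more, at 2650 against 2077 CPM. The direction of the median also turned, to 0.39 with a mitochondrial limit of 5% and to 0.12 with at least 50 CPM. Translation factors, chaperones and immunoglobulin constant genes had medians of -0.26, -0.17 and -0.21. Of the 7 immunoglobulin constant genes, 1 passed only through the high-RNA cells and had to be lower, and the other 6 had a median of -0.14. The direction of the immunoglobulin constant median turned, to 0.04, without cells that held any B1 list UMI.

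**Figure D3:**
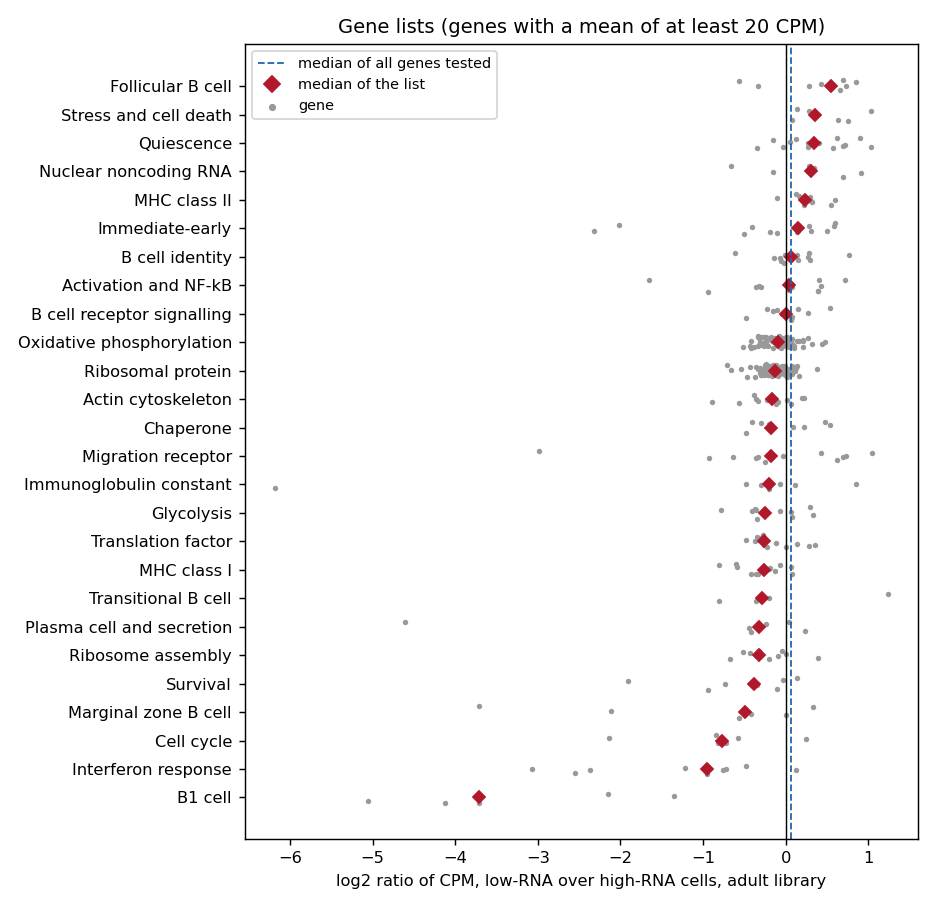
The log2 ratio of CPM in low-RNA over high-RNA adult cells (horizontal axis) for the genes of 26 lists, each gene a gray point and each list's median a red diamond, with the median of all genes (0.07) as a dashed line. The follicular median is at 0.54 and the B1 median at -3.71, where 2 of the 5 B1 genes passed the minimum only through the high-RNA cells.

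CD21 and CD23 are surface proteins by which mouse B cells are commonly divided, and the cells were sorted into classes here by the transcripts of both. Among thinned low-RNA cells, 39.7% (37.2 to 42.2%) had Fcer2a without Cr2, against 23.7% (21.1 to 26.4%) of high-RNA cells. Cr2 without Fcer2a was found in 6.39% (5.19 to 7.76%) and 12.7% (10.8 to 14.9%). Both were present in 7.74% and 7.95%, and neither in 46.2% and 55.7%. At this depth a missing transcript does not show that the protein is missing. As sequenced, Fcer2a was present in 69.0% of low-RNA and 73.8% of high-RNA cells. The log2 ratio of the thinned shares of cells with Fcer2a was 0.59, and it was -0.08 without cells that held any B1 list UMI.

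Cells with several genes of a program were few among the low-RNA cells. At least 3 B1 cell genes were found in 3 of 1472 (0.204%, 0.0420 to 0.594%) and in 240 of 1044 high-RNA cells (20.5 to 25.7%). At least 3 interferon genes were found in 5.91% and 19.5%, and at least 3 cell cycle genes in 1.43% and 5.27%. At least 1 B1 cell gene was found in 28.7% of low-RNA cells and 78.2% of high-RNA cells.

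The comparison therefore set low-RNA cells against a group rich in B1 list transcripts, and it was repeated among the 1050 low-RNA and 228 high-RNA cells with no B1 list UMI. The smaller number of high-RNA cells widened the counting error. There, 328 genes were higher and 435 lower by at least 1.5-fold. The follicular median was -0.01 and the quiescence median 0.05. The interferon median was -0.83 and the stress median at 0.39. Of the named genes, Vpreb3 had 0.43, Cd55 0.59, Tsc22d3 0.73, Ccnd2 -2.20 and Plac8 -1.36. Of the 12 higher named genes, 8 fell short of 1.5-fold, the lowest being Dusp2 at 0.22 and Neurl3 at 0.31, and all 12 kept their sign. The 10 lower genes outside the B1 list were all past 1.5-fold, from -2.20 to -0.77.

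Levels were also read in 7 steps of droplet size, with 83, 646, 743, 512, 583, 723 and 321 adult cells, all thinned to 2000 UMIs. S100a6 was at 42.2, 23.2 and 32.3 CPM in the 3 steps inside the low-RNA range. It was at 120 CPM from 5001 to 7000 UMIs, 459 CPM from 7001 to 10000, 1020 CPM from 10001 to 20000 and 836 CPM above. Most of the difference in S100a6 lay above 5000 UMIs, although the 50.8 CPM in the cells of 4501 to 5000 UMIs given above already exceeded the 23.2 CPM from 3001 to 4000. Plac8 differed within the range as well, from 175 to 209 and 288 CPM, before 1098 CPM from 10001 to 20000 UMIs. Cd55 ran the opposite way, with 795, 682 and 630 CPM inside the range and 341 CPM in the largest cells, and Tsc22d3 had 1102, 911 and 852 CPM and then 379 CPM. Vpreb3 was highest, at 312 CPM, from 3001 to 4000 UMIs.

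**Figure D4:**
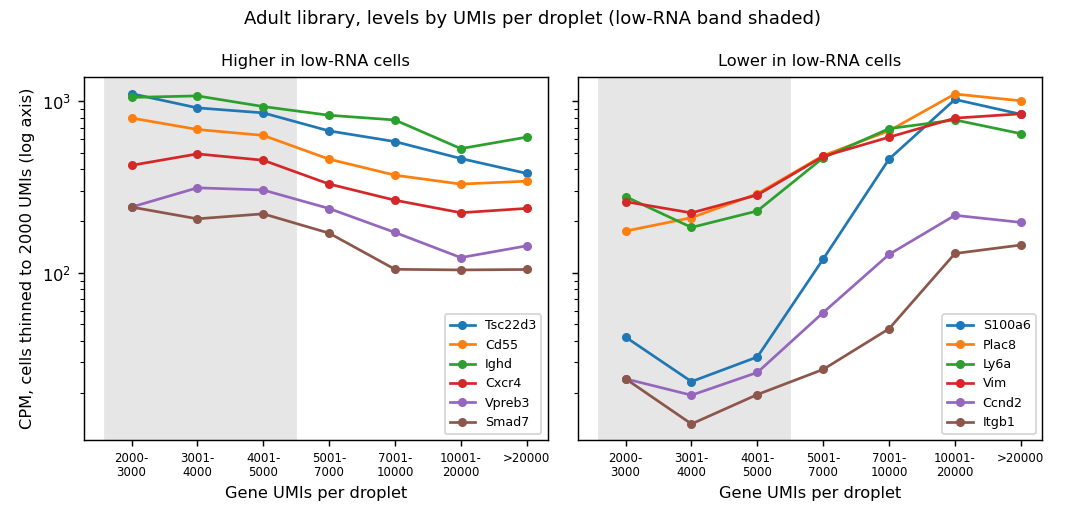
CPM (vertical log axis) of 6 higher and 6 lower genes against gene UMIs per droplet in 7 steps (horizontal axis), adult cells thinned to 2000 UMIs, with the low-RNA range shaded. S100a6 runs from 23.2 CPM at 3001 to 4000 UMIs to 1020 CPM at 10001 to 20000, and Tsc22d3 from 1102 down to 379 CPM.

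The classes followed droplet size with different steps. Fcer2a without Cr2 was found in 43.4, 40.2 and 38.8% of cells inside the low-RNA range and in 25.2% above 20000 UMIs. Cells with both transcripts were most frequent, at 13.9%, from 5001 to 7000 UMIs, just above the range. At least 3 cell cycle genes stayed at or below 2.21% up to 20000 UMIs and reached 12.1% above. The quiescence list summed to 7892, 8352 and 8114 CPM inside the range and to 5251 CPM in the largest cells, and the stress list to 867, 752 and 748 CPM and to 570 CPM.

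**Figure D5:**
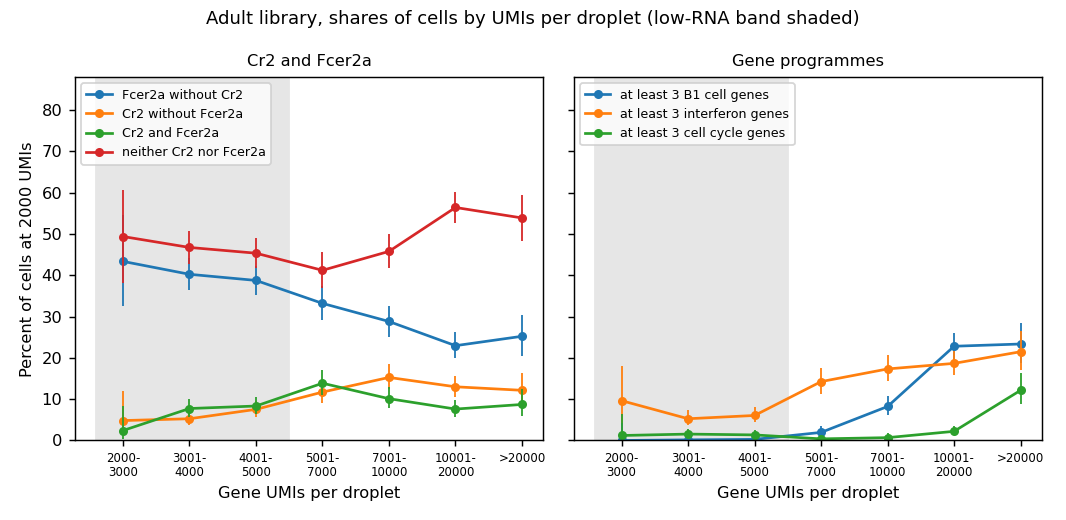
Percent of adult cells at 2000 UMIs (vertical axis) that held the named transcripts, against gene UMIs per droplet in 7 steps (horizontal axis); bars are exact 95% counting intervals and the low-RNA range is shaded. Cells with Fcer2a and no Cr2 run from 43.4% to 25.2%, and cells with at least 3 B1 cell genes from 0% to 23.4%.

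Within the low-RNA cells, immunoglobulin light chain genes were among the most uneven. Over 1195 genes of at least 100 CPM, the variance of UMIs divided by their mean had a median of 1.07, and Iglc1 reached 17.4, followed by Gm42418 (8.78), Iglc2 (6.51) and Igkc (6.40). More lambda (Iglc1 to Iglc3) than kappa (Igkc) UMIs were found in 7.54% of low-RNA and 10.9% of high-RNA cells. Malat1 (5.92), Jund (4.85), Fos (3.90) and Klf2 (3.84) came next. Apoe, apolipoprotein E, varied as well (3.43), with a UMI in 32.9% of low-RNA cells, where free RNA would give 2.03%.

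Vpreb3 was about as frequent in low-RNA cells with and without the CD23 transcript. It was present in 38.8% (35.2 to 42.6%) of the cells with Fcer2a and 37.7% (34.3 to 41.2%) of those without. Its neighbor Chchd10 was present in 49.4% (45.2 to 53.6%) of cells with Vpreb3 and 38.8% (35.7 to 42.1%) of those without. Cd24a was found in 32.9% and 27.0% of these cells. The 67 low-RNA cells with S100a6 had Vim in 58.2% (45.5 to 70.2%), against 31.2% (28.8 to 33.7%) of the other 1405, while Fcer2a was in 44.8% and 47.5%.

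The neonatal library gave the same ranges in cells that had no part in the choice. There, 707 of 5233 genes (13.5%) were at least 1.5-fold higher in the low range and 360 (6.88%) at least 1.5-fold lower. All 12 higher and all 12 lower named genes had the same sign as in the adult library, and 8 of the higher and 12 of the lower passed 1.5-fold. Of all genes measured in both libraries, 62.7% were above 0 in the neonatal cells. Vpreb3 had 798 CPM in low-RNA and 263 CPM in high-RNA neonatal cells, and Chchd10 had 468 and 173 CPM. Cxcr4 differed least, with 444 and 364 CPM. The neonatal high-RNA cells also carried transcripts of other cell types. Macrophage and monocyte genes were at 173 CPM (5.49 in low-RNA cells) and neutrophil genes at 81.3 CPM (0.916). Of the neonatal high-RNA cells, 59 shared a barcode that held at least 500 UMIs in the adult library. Without droplets that held at least 2 UMIs of other cell types or shared a barcode, 305 of 375 high-RNA cells were left, and all 24 genes kept their sign, with S100a6 at -5.58, Lgals1 at -3.20, Ahnak at -1.46 and Vim at -0.95. Of 331 adult higher genes measured there, 114 (34.4%) were at least 1.5-fold higher and 10 at least 1.5-fold lower. Of 238 adult lower genes, 111 (46.6%) were at least 1.5-fold lower and 6 at least 1.5-fold higher. Across 4694 genes measured in both libraries, the log2 ratios had a Pearson correlation of 0.56 and a Spearman correlation of 0.41, where genes are not independent and both libraries share the droplet chemistry.

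The gene lists were compared between the libraries over genes with at least 20 CPM in both size groups. Of 26 lists with at least 3 such genes in each library, 20 had medians of the same sign and 6 of opposite sign. In the neonatal library the median was -1.04 over 4 B1 cell genes, -0.81 over 3 cell cycle genes, 0.56 over 14 quiescence genes and 0.24 over 7 follicular genes. The interferon list was at -0.03 over 4 genes, against -0.74 over 6 in the adult library, and ribosomal protein genes were at -0.31. The lists of opposite sign were immediate-early genes (-0.42 in the neonatal library, with 6 of 14 at least 1.5-fold lower), immunoglobulin constant genes (0.46, with 3 of 6 higher by that much), transitional B cell genes (0.82), migration receptors (0.07), actin cytoskeleton genes (0.05) and survival genes (0.03). Neither library has a replicate, so no difference between the ages was tested.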

How the data were processed

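The authors aligned the reads to mm10 and counted UMIs with Cell Ranger (3.0.2 in the file headers) and deposited raw counts per gene and droplet, with no normalization and no filter on droplets. CPM, ratios and shares were computed here with Python 3.11.15, numpy 2.4.6, scipy 1.17.1, pandas 2.3.3 and matplotlib 3.10.9. Each cell was thinned to 2000 UMIs, none being shallower, and UMIs were summed over cells. Log2 ratios have exact conditional binomial intervals and shares Clopper-Pearson intervals. The antibody rows held 2 adult UMIs and were not used. No doublet caller was run beyond the sort gate; upper limits on UMIs and on genes of other cell types were tried instead. Named genes were the 12 highest and 12 lowest ratios of genes reaching 100 CPM in at least 1 group, leaving out Cd79a, mitochondrial and immunoglobulin segment genes and genes of which 1 cell gave over 10% of UMIs, plus members of the lists and 8 markers of shares. Some planned items are not reported here. Cells, lists and markers were chosen with earlier results of these data known. The calculations were tested on simulated data. In all, 17 alternatives were planned and 5 were added after seeing the data: cells with no B1 gene, cells with Cr2 or Fcer2a, 5001 to 10000 UMIs as the larger group, the mean of shares over cells, and neonatal cells without other cell types or shared barcodes. RefSeq promoters (GRCm38.p6) were searched by their letters.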

Additional observations from a re-analysis of the deposited data

Results flagged for a closer look

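The median of the transitional B cell genes was below 0 in the adult and above 0 in the neonatal library. In the adult library its median log2 ratio of low-RNA over high-RNA cells was -0.28 over 4 genes, and in the neonatal library it was 0.82 over 6 genes. The adult direction depended on the minimum level, since the median was 0.19 with no minimum. Cd24a had -0.81 in the adult and 0.42 in the neonatal cells, and Ly6d had -0.21 and 0.99, while Vpreb3 was higher in low-RNA cells at both ages. The difference was not tested, since each age is 1 library.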

How the results depend on the processing

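No paired analysis was possible because each age is 1 library. Of the 24 named genes, 23 kept their sign under the alternatives run for them (17 planned and 4 added, where cells without B1 genes give no value for S100a6 and Ahnak), the exception being Atf3, at 0.44 with a mitochondrial limit of 5%, which left 54 low-RNA and 49 high-RNA cells. Where a value moved, the cause was not tested unless the setting itself removes genes or cells. Depth limits low genes most: at 2000 UMIs a cell, shares of cells with a UMI understate expression. Values below are list medians and log2 ratios of shares.

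With the mitochondrial limit of 5%, 1548 genes were higher and 1195 lower; B1 -1.12, cell cycle -1.55, follicular 1.02, quiescence 0.87, ribosomal -0.036, migration 0.39; shares Bhlhe41 -0.73, Cr2 -0.95, Ms4a1 0.26, S100a6 -2.60 and Vpreb3 1.44. With 20%, B1 was -2.95 and ribosomal -0.22. Without thinning, 198 genes were higher and 242 lower, the ratio of genes per cell was 0.433 and ribosomal was -0.11. Shares were then Bhlhe41 -4.52, Cd5 -6.60, Cr2 -1.43, Fcer2a -0.10, Ms4a1 -0.15 and Vpreb3 -0.024. At 1000 UMIs, B1 was -4.38, follicular 0.62, quiescence 0.51, Ms4a1 -0.37 and Vpreb3 1.28. Another random seed gave follicular 0.63, quiescence 0.62 and chaperone 0.0023. The mean over cells gave 232 higher genes, follicular 0.62, quiescence 0.50 and ribosomal -0.13.

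With no minimum level, 1551 genes were higher and 1653 lower, with cell cycle -2.64 and transitional 0.19. With at least 50 CPM, 142 were higher and 109 lower, with B1 -2.15, quiescence 0.49 and migration 0.12. Median-of-ratios scaling gave ribosomal -0.20 and B cell identity -0.0020. High-RNA cells limited to 20000 UMIs gave cell cycle 0.11 and ribosomal -0.17. Against 5001 to 10000 UMIs, 155 were higher and 137 lower; B1 -1.79, cell cycle 0.25, follicular 0.26, ribosomal -0.10, identity -0.055, chaperone 0.16, MHC class II -0.040 and ribosome assembly 0.0093; shares Bhlhe41 -0.43, Cr2 -0.85, Fcer2a 0.15, S100a6 -2.54 and Vpreb3 0.42.

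Only cells with Cr2 or Fcer2a (792 and 463) gave B1 -3.22, follicular 0.28, quiescence 0.19, ribosomal -0.086, identity -0.035, chaperone 0.0054, immediate-early -0.013, and shares Cr2 -0.83, Fcer2a 0.31 and Vpreb3 0.54. Without cells of any B1 gene (228 high-RNA cells), 435 genes were lower, with follicular -0.012, quiescence 0.047, ribosomal -0.054, identity -0.093, Cr2 -0.92, Fcer2a -0.077, Ms4a1 -0.17 and Vpreb3 0.45. Without cells of at least 3 B1 genes, B1 was -1.24, follicular 0.38, ribosomal -0.12, identity -0.023, Bhlhe41 -1.81, Fcer2a 0.37 and Vpreb3 0.71. Without cells of at least 3 cell cycle genes, which removes cells by the list scored, cell cycle was 0.70. Neonatal counts were 778 and 320 without droplets of other cell types or shared barcodes.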

Other observations

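Between the low-RNA and high-RNA cells lay 1095 adult cells with 5001 to 10000 UMIs. Against these, 155 genes were at least 1.5-fold higher in low-RNA cells and 137 lower, fewer than against the larger cells. The share of cells with Cr2, after thinning, differed more from this middle group (log2 ratio -0.85) than from the high-RNA cells (-0.55), and that of Fcer2a less (0.15 against 0.59).

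The 381 adult Cd79a droplets of the same size that exceeded the mitochondrial limit had a median mitochondrial share of 15.3%. They had 53450 CPM of Malat1, against 30648 CPM in the 1472 low-RNA cells. They also had 68.2 CPM of S100a6 against 28.9, and 2470 CPM of Cd79a against 3021. Fcer2a was at 349 and 374 CPM, and Vpreb3 at 209 and 303 CPM.

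Xist, the transcript of the inactive X chromosome in female cells, was found in 0 of 1472 thinned low-RNA cells of the male adult pool, which allows a share of cells with a UMI of up to 0.204% by a limit of 3 counts and 0.250% by the exact interval. In the neonatal pool of both sexes it was found in 17.6% of the cells of the same size. Sdc1, the plasma cell surface gene CD138, had 11.5 CPM in low-RNA and 2.87 CPM in high-RNA cells, opposite to the other secretion genes Jchain and Mzb1, but lay under the minimum level. It was singled out after its value was seen.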
